A study of Mus musculus with 12 samples.

Results

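The transcriptomes of Camkk2-/- (KO) and wild-type (WT) bone marrow-derived macrophages (BMDM) were compared after culture in the stiffened matrix. The comparison holds 4 of the 12 libraries of the series, 2 labelled KO stiff and 2 labelled WT stiff, which were taken by their labels. Of the 14098 genes listed, 10808 had at least 1 TPM, a read share corrected for gene length, in at least 2 of these 4 libraries and were tested. Bone marrow came from male and female C57Bl/6 mice of 8 to 10 weeks, either WT or with a germline deletion of Camkk2, which is present in each cell of the animal and not in macrophages alone. The marrow was differentiated with L929-conditioned medium, a source of the macrophage growth factor M-CSF, in plates to which cells do not attach, and the BMDM were then enclosed in a gel of collagen and hyaluronic acid. Crosslinking by UV light with the photoinitiator Irgacure stiffened the gel 24 h after encapsulation, and the cells stayed in it for another 48 h without added IL-4. They were released with collagenase IV (400 U/mL for 1 h at 37 degrees) and polyadenylated RNA was sequenced. The soft matrix of the series, which served WT and KO libraries with and without IL-4, was by the study's methods made with less collagen, without photoinitiator and without UV light, so that stiffness cannot be told apart from these in stiff against soft. Replicates were labelled biological, but no label says whether they came from separate mice, so that p-values measure the spread between these libraries.

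CaMKK2 is a kinase that is switched on by calcium and calmodulin and acts on CaMKI, CaMKIV and AMPK. Macrophages can take up different activation programs. Interleukin-4 acts through its receptor and the transcription factor STAT6 and induces the alternative program, with resistin-like and chitinase-like proteins, the mannose receptor and chemokines such as Ccl17 and Ccl22. Interferons act through their receptors and induce antiviral genes, many of which carry an interferon-stimulated response element (ISRE) near their start.

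The level of Camkk2 did not follow the labels of the stiff libraries. Camkk2 (chromosome 5, 122731170 to 122779409, minus strand, GRCm38) stood at 37.7 TPM in the library labelled KO stiff 1, 10.0 TPM in KO stiff 2, 23.3 TPM in WT stiff 1 and 23.7 TPM in WT stiff 2. The library labelled KO stiff 1 thus held more Camkk2 than either WT stiff library, and the groups overlapped. The difference KO minus WT was −0.25 on the log2 scale (adjusted p = 0.901, limma) and −1.15 without KO stiff 1. Which exons the deletion removes is not given in the sources used here, and a TPM is 1 value for the whole gene. In the soft libraries without IL-4 the gene likewise did not separate the labels. It stood at 44.2 and 11.7 TPM under WT soft and at 46.6 and 11.5 TPM under KO soft. With IL-4 it followed the labels, at 30.5 and 29.8 TPM under WT soft and 11.5 and 8.54 TPM under KO soft. No library was moved to another group, and calls that were lost without the library labelled KO stiff 1 are given beside the results.

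The library labelled WT stiff 1 stood apart in another way. Its log2 levels correlated at r = 0.937 to 0.949 with the other 3 stiff libraries, over genes, whereas KO stiff 1 and KO stiff 2 correlated at r = 0.987. Egln3, a prolyl hydroxylase induced by low oxygen, was at 75.7 TPM in it and at 0.599 to 1.27 TPM in the other stiff libraries. Mki67, a proliferation marker, was at 40.8 TPM in it against 2.94 to 3.82 TPM, and Lpl, lipoprotein lipase, at 106 TPM against 1947 to 2143 TPM. Genes listed at 0 made up 11.5% and 10.7% of the table in KO stiff 1 and WT stiff 1 and 7.28% and 6.24% in KO stiff 2 and WT stiff 2. In each of the 6 groups of the series the replicate 1 library had more genes at 0 than the replicate 2 library (10.7% to 13.4% against 5.90% to 7.54%). KO stiff 2 was closest to KO soft 2 (r = 0.993) and WT stiff 2 to the second WT soft library with IL-4 (r = 0.996). Since TPM values hold no read totals, library depth is not known. The macrophage markers Csf1r, Cd68 and Itgam lay at 1319 to 1809, 1825 to 2061 and 308 to 376 TPM over the 4 libraries. Of the 9 stromal markers in the table, none reached 1 TPM in at least 2 of them. Summed neutrophil markers made 12.6 and 27.4 TPM in KO stiff against 27.3 and 18.3 TPM in WT stiff, and B cell, T and NK cell, mast cell and eosinophil markers between 1.02 and 7.47 TPM per list. Endothelial markers, mostly Vwf, summed to 31.3 and 25.0 against 60.1 and 43.5 TPM, and osteoclast markers, which macrophages share, to 217 and 163 against 282 and 355 TPM. The dendritic cell list, which is almost all Itgax, summed to 271 and 261 against 192 and 641 TPM. The erythroid markers Klf1 and Epor were at 0.232 TPM or less. The part of these cells in the results was not tested.

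KO stiff BMDM differed from WT stiff BMDM in 223 genes, of which 154 were higher and 69 lower. These are called DE genes and had a Benjamini-Hochberg adjusted p under 0.05 in limma, on log2(TPM + 1) with all 12 libraries in 1 model, and differed by 1 or more on the log2 scale in either direction. They made up 1.42% and 0.638% of the tested genes. These shares are to be set beside the counts of list members below, whose called percentages join both directions. The scale understates the change of genes at low TPM, and in bulk RNA fewer cells that express a gene cannot be told apart from less RNA per cell. In the 223 genes both libraries of 1 genotype lay above both of the other, as did 21.5% of tested genes with KO on top and 17.7% with KO below. With 2 libraries against 2, the smallest p that exact permutation can give for 1 gene is 0.333, so that the calls rest on the spread shared by the 6 groups. Fitted to the 4 stiff libraries alone, the same model called 0 DE genes, with 953 at an unadjusted p under 0.05. The median log2 fold change of the tested genes was −0.01.

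Many calls depended on a single library. A group with 1 library left was assumed to vary like the others. Without KO stiff 1, 86 genes were higher (0.796% of those tested) and 27 lower (0.25%), and 103 of the 223 remained DE genes while 209 kept a difference of at least 2-fold. Without WT stiff 1, 169 were higher (1.56%) and 60 lower (0.555%), and 143 of the 223 remained, with 156 at 2-fold or more. Without KO stiff 2, 92 genes were called, and without WT stiff 2, 962. In 67 genes, 55 higher and 12 lower, the call remained whichever of the 4 libraries was left out.

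**Figure D1:**
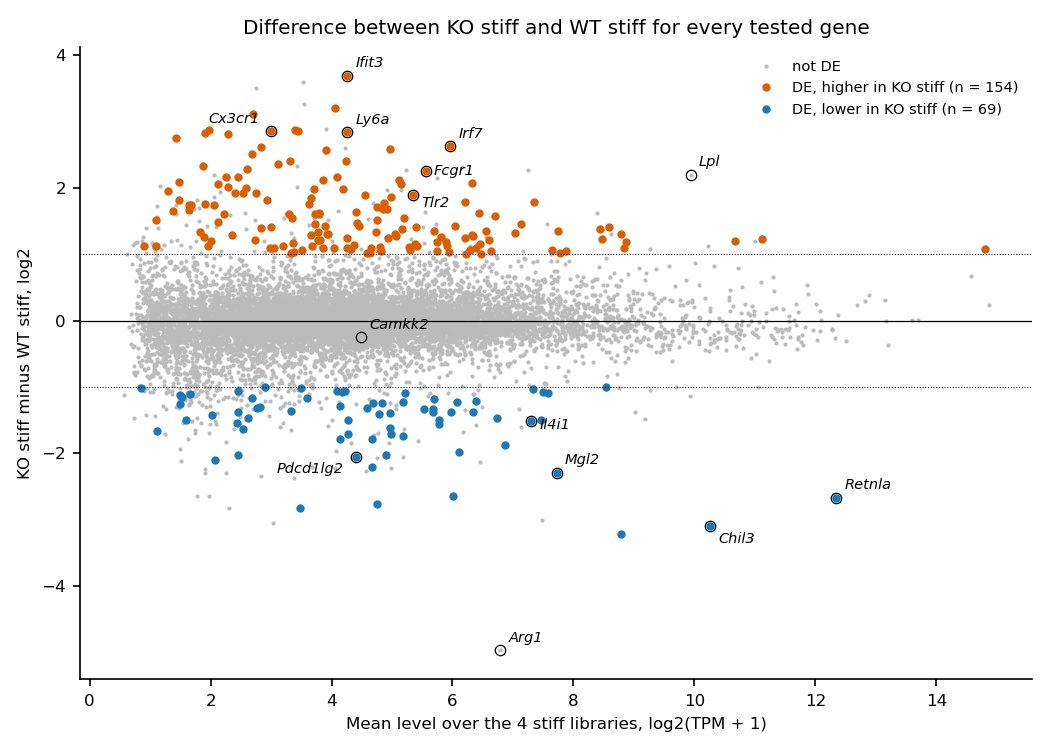
Each point is 1 of the 10808 tested genes, with its mean level over the 4 stiff libraries as log2(TPM + 1) on the x axis and KO stiff minus WT stiff on the log2 scale on the y axis. Coloured points are the 154 higher and 69 lower DE genes, dotted lines mark a log2 fold change of 1, and circled genes are named. Arg1 and Lpl lie far from 0 without being DE genes.

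**Figure D2:**
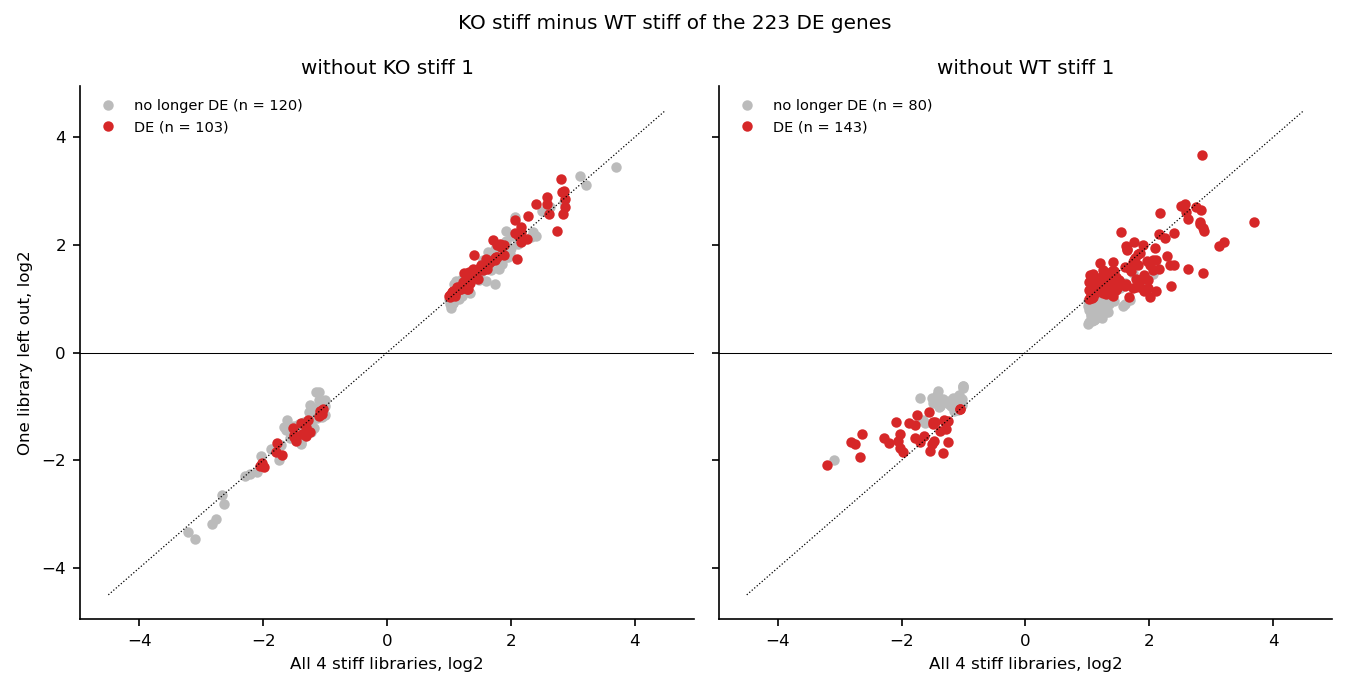
KO stiff minus WT stiff of the 223 DE genes on the log2 scale, with all 4 stiff libraries on the x axis and with KO stiff 1 (left) or WT stiff 1 (right) left out on the y axis. Without KO stiff 1 the points stay near the dotted line of equal values although 120 lose the call, and without WT stiff 1 many move towards 0.

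Genes of alternative activation were lower in KO stiff BMDM. Of 54 tested members of the list, 22 fell and 0 rose (40.7%). The median log2 fold change was −1.28 against −0.01 over the tested genes. Without WT stiff 1 the median was −0.95 with 20 lower and 2 higher, and without KO stiff 1 it was −1.28 with 9 lower. Between the libraries of the same replicate number the medians were −1.41 (number 1) and −1.02 (number 2). The list holds genes that the study chose on these libraries, so that its direction is not independent evidence.

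The secreted products of the alternative program were among the largest falls. Retnla, a resistin-like protein that is secreted in type 2 immunity (chromosome 16, 48842551 to 48844461), stood at 2016 and 2092 TPM under KO stiff and at 21525 and 7919 TPM under WT stiff. Both KO libraries lay below both WT libraries, and WT stiff 1 was the higher of the WT pair. The log2 fold change was −2.67 (SE 0.45, adjusted p = 0.0103), or −1.95 without WT stiff 1 and −2.64 without KO stiff 1. Chil3, a chitinase-like lectin (chromosome 3, 106147554 to 106167564), fell from 7681 and 1669 TPM to 540 and 322 TPM, by 3.10 on the log2 scale (adjusted p = 0.0459), and by 2.00 without WT stiff 1, where the call was lost (adjusted p = 0.124). Its close copy Chil4 fell by 2.82 and Rnase2a, an eosinophil-type ribonuclease, by 3.21, and the division of reads among the copies of both families is uncertain. Retnla, Chil3, Chil4 and Rnase2a kept falls of 2.64 to 3.47 without KO stiff 1 but lost the call (adjusted p = 0.0779 to 0.147), as they did without KO stiff 2 (0.0749 to 0.242). Ear2, also of the ribonuclease family, was at 89.8 and 42.5 against 1202 and 210 TPM and missed the threshold (adjusted p = 0.0524).

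Arg1 had the largest difference of the tested genes but was not a DE gene. Arginase 1, which breaks down arginine, was listed at 35.3 and 9.84 TPM under KO stiff against 8850.2 and 42.6 TPM under WT stiff. The groups did not overlap, yet WT stiff 1 alone carried the level, and the log2 fold change of −4.97 (SE 1.93, adjusted p = 0.206) became −1.14 without it. Slc7a2, a transporter of cationic amino acids such as arginine, was at 12.03 and 7.15 against 144 and 32.6 TPM and fell by 2.76 (adjusted p = 0.0264, or 0.0908 without KO stiff 1 and 0.173 without KO stiff 2).

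Il4i1 and Pdcd1lg2 kept their fall whichever library was left out. Il4i1, a secreted amino acid oxidase named for its induction by IL-4 (chromosome 7, 44816387 to 44840809), measured 85.9 and 99.7 TPM in KO stiff against 232 and 304 TPM in WT stiff, with no overlap. Its log2 level fell by 1.51 (SE 0.134, adjusted p = 0.000636), and by 1.32 to 1.70 with 1 library left out. Pdcd1lg2, which encodes the PD-1 ligand PD-L2 (chromosome 19, 29410919 to 29471161), was at 9.83 and 8.98 against 56.0 and 31.5 TPM. Its fall was 2.05 (SE 0.245, adjusted p = 0.00175), and 1.65 to 2.46 with 1 library left out. Tfrc, the transferrin receptor, Irf4, a transcription factor of the alternative program, Itgb3, the beta 3 integrin, and Flt1, a VEGF receptor, are among the 12 lower genes with the same stability. Irf4 and Flt1 were named after their values were seen.

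Surface lectins and chemokines of the program were lower as well. Mgl2, a galactose-binding lectin (chromosome 11, 70130329 to 70137550), was at 94.1 and 94.8 TPM in KO stiff and 758 and 287 TPM in WT stiff. It fell by 2.29 (adjusted p = 0.00674), by 1.59 without WT stiff 1, and the KO libraries were near each other while the WT libraries were not. Mrc1, the mannose receptor CD206, was at 94.2 and 114 against 436 and 198 TPM, and its fall of 1.50 (adjusted p = 0.0468) was 0.93 without WT stiff 1 (adjusted p = 0.113). Ccl22, a ligand of CCR4, fell from 55.7 and 116 to 30.5 and 32.1 TPM (log2 fold change −1.33, adjusted p = 0.0276), and had −0.81 without WT stiff 2, under the 2-fold limit. Mgl2, Mrc1 and Ccl22 lost the call without KO stiff 1 (adjusted p = 0.055, 0.245 and 0.164) and without KO stiff 2 (0.0584, 0.154 and 0.136). Ccl17, the other CCR4 ligand, was at 13.8 and 6.53 against 37.6 and 36.3 TPM with a log2 fold change of −1.85, and did not pass (adjusted p = 0.0671). Lgals3, which encodes galectin-3, was at 8763 and 7852 against 9489.9 and 12142 TPM (log2 fold change −0.37, adjusted p = 0.235).

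Cish, Socs1 and Socs2 fell, while Socs3, the receptor and STAT6 itself did not pass the test. The 3 genes encode SH2 proteins that STAT factors induce and that damp their own signal. Cish was at 11.3 and 10.4 against 77.7 and 36.8 TPM and fell by 2.21 (adjusted p = 0.00931). Socs1 was at 37.3 and 30.5 against 151 and 123 TPM and fell by 1.98 (adjusted p = 0.00783), and Socs2 by 1.63. In each of these genes both KO libraries lay below both WT libraries. Socs3, of the same family, was at 6.77 and 6.79 against 6.51 and 2.36 TPM (0.63, adjusted p = 0.423). Ptpn6, the phosphatase SHP-1 and likewise an inhibitor of cytokine signals, rose by 1.06, and had 0.71 without WT stiff 1. Without KO stiff 1 the call was lost in Cish (adjusted p = 0.065), Socs2 (0.0533) and Ptpn6 (0.0747), and without KO stiff 2 in Cish, Socs1 and Ptpn6 (0.0754 to 0.0776). Il4ra, the IL-4 receptor chain, was at 28.0 and 35.6 against 33.1 and 25.4 TPM and Stat6 at 109.6 and 108 against 108 and 92.3 TPM, with log2 fold changes of 0.12 each. Socs3, Il4ra and Stat6 were named after their values were seen. Of the 22 tested members of this pathway, 3 fell and 1 rose (18.2%), and the median was 0.08.

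Promoters of DE genes were read for the STAT6 site, TTCNNNNGAA, which reads the same on both strands. The sequences of Pdcd1lg2 and Retnla are shown because they had the smallest p among members of the alternative activation list that hold it, and run from 250 bases before to 50 after the gene start in RefSeq (GRCm38.p6), 5′ to 3′, with the site in capitals, 82 and 145 bases before the start.
Pdcd1lg2 (chr19:29410669-29410968, plus strand): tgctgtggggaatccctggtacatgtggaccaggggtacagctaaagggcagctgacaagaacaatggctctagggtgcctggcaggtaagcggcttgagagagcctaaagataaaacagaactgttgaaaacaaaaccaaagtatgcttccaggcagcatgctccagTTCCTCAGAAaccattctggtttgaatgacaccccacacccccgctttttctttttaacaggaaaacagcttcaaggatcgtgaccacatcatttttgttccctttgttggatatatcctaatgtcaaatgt
Retnla (chr16:48842359-48842658, plus strand): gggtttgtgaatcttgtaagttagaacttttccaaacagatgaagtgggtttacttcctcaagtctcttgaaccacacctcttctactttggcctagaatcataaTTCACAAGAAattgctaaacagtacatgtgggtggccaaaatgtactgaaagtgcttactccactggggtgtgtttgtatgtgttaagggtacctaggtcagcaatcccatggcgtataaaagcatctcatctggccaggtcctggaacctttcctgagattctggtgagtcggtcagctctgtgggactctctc
The site was in 17% of the 53 lower DE genes with a promoter in the table, 7.21% of the 111 higher ones and 6.45% of the 8337 tested genes, against 8.01% of all 27025. Within the alternative activation list it was in 5 of 38 members, and in 2 of the 17 that fell. A match is a description of letters and not of binding.

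**Figure D3:**
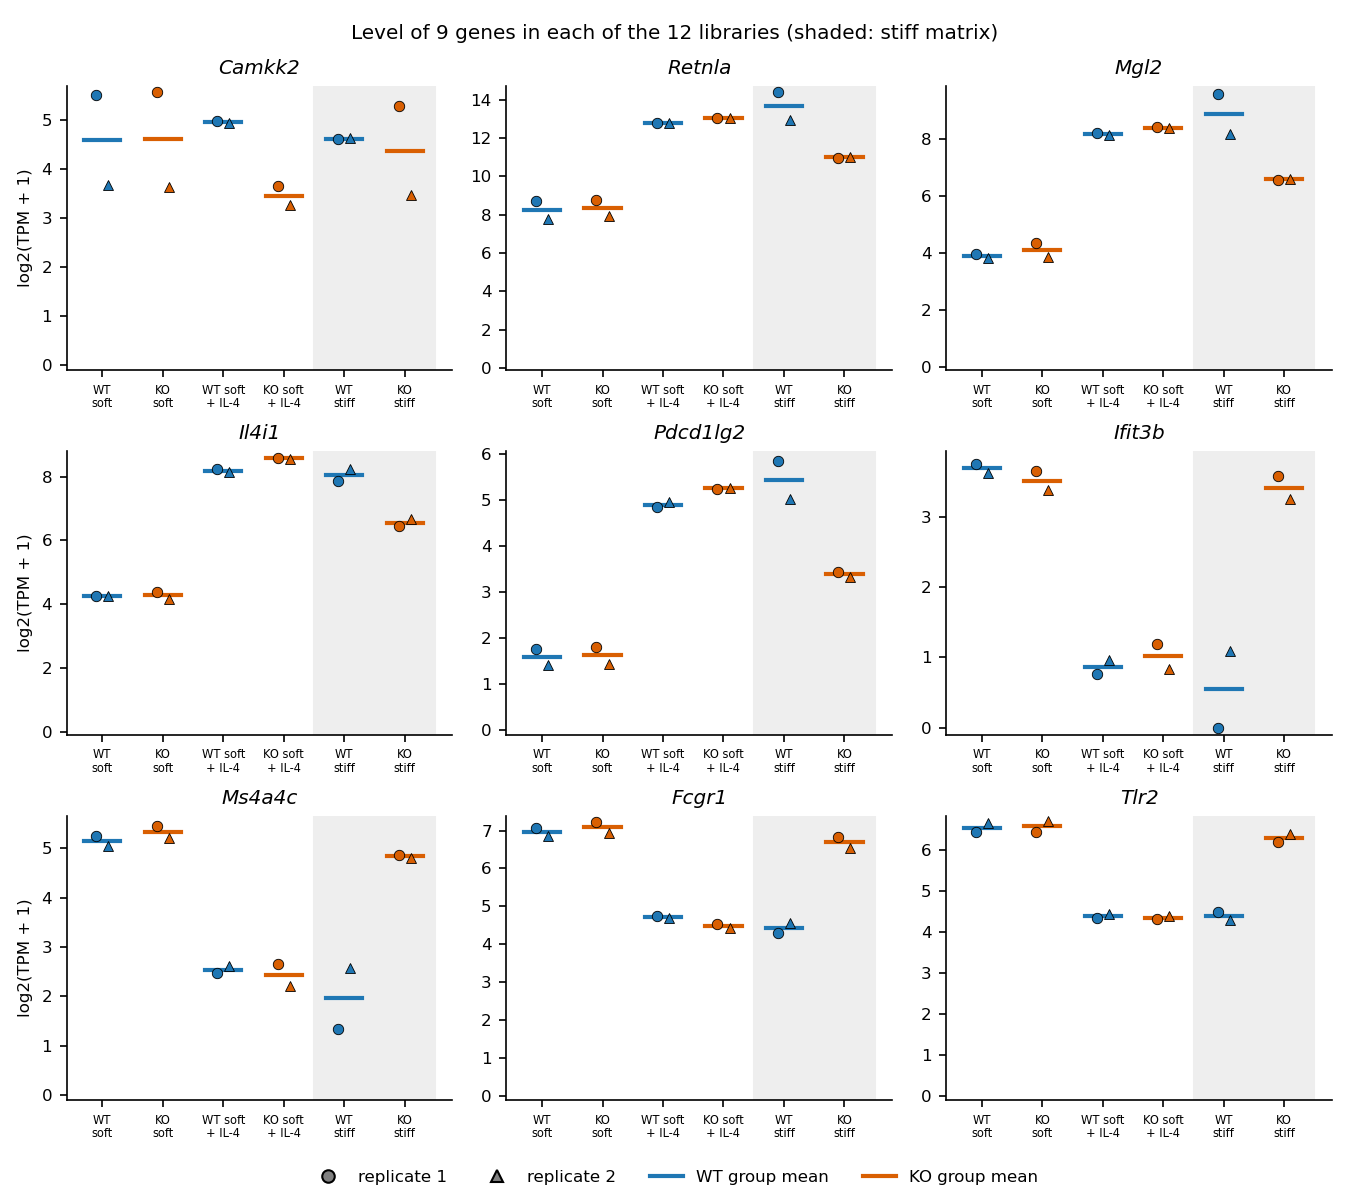
Levels of 9 genes as log2(TPM + 1) in the 12 libraries, with circles for replicate 1, triangles for replicate 2, bars for group means, blue for WT and orange for KO, and the stiff groups shaded. In Retnla, Mgl2, Il4i1 and Pdcd1lg2 the KO stiff libraries lie below WT stiff and in Ifit3b, Ms4a4c, Fcgr1 and Tlr2 above, whereas Camkk2 overlaps.

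Interferon-stimulated genes were higher in KO stiff BMDM. Of 81 tested members, 26 rose and 0 fell (32.1%, against 1.42% higher and 0.638% lower of all tested genes). A positive log2 fold change was found in 79. In 66 both KO libraries lay above both WT libraries, against 21.5% of all tested genes. The median was 1.04. It was 0.96 without KO stiff 1, when 4 members were called, and 0.54 without WT stiff 1, when 18 were. Between the libraries of the same replicate number the medians were 1.59 (number 1) and 0.51 (number 2). The median level of the members was 36.2 and 36.9 TPM in KO stiff, 10.9 and 23.3 TPM in WT stiff 1 and 2, and 39.1 to 41.7 TPM in the 4 soft libraries without IL-4.

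Antiviral effectors and their regulators were among these calls. Ifit3, an RNA-binding antiviral protein (chromosome 19, 34583531 to 34588731), measured 80.4 and 57.5 TPM in KO stiff against 1.21 and 11.9 TPM in WT stiff. The largest rise of the DE genes was its 3.69 on the log2 scale (SE 0.642, adjusted p = 0.0116), or 2.42 without WT stiff 1, in which it was lowest. Its close copy Ifit3b (chromosome 19, 34607970 to 34613401) was at 11.0 and 8.50 TPM in KO stiff, listed at 0 in WT stiff 1 and at 1.14 TPM in WT stiff 2. The fitted difference was 2.87 (SE 0.322, adjusted p = 0.00136), the reads of the pair could have been split, and Ifit3b is among the 67 genes called with each library left out. Irf7, the factor that amplifies interferon production (chromosome 7, 141262706 to 141266481), was at 144 and 163 against 10.9 and 51.6 TPM, without overlap. It rose by 2.62 (SE 0.508, adjusted p = 0.0193), or by 1.55 without WT stiff 1. Ifit3 and Irf7 had 3.45 and 2.71 without KO stiff 1 but lost the call (adjusted p = 0.0947 and 0.103), as they did without KO stiff 2 (0.0654 and 0.124).

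Other members of the list followed. Cxcl10, a ligand of CXCR3 on T cells, was at 16.2 and 20.5 TPM in KO stiff, listed at 0 in WT stiff 1 and at 3.90 TPM in WT stiff 2 (log2 fold change 3.12, adjusted p = 0.0181). Ms4a4c, a membrane protein of the MS4A family, was at 28.0 and 27.1 against 1.54 and 4.93 TPM and rose by 2.88 (SE 0.328, adjusted p = 0.00146), with 2.27 to 3.49 when 1 library was left out. Slfn8, of the Schlafen family, was at 37.0 and 32.1 against 9.39 and 14.8 TPM and rose by 1.47 (SE 0.181, adjusted p = 0.00202). In these genes the KO libraries lay above both WT libraries, and WT stiff 1 was the lowest. Oasl1 and Oasl2, homologs of the oligoadenylate synthetases with near-identical stretches, lie on chromosome 5 like Camkk2. They run from 114896936 (Oasl2) to 114937915 (Oasl1), whereas Camkk2 lies at 122731170 to 122779409. Oasl1 rose by 1.92 (adjusted p = 0.0429) and Oasl2 did not pass (2.26, adjusted p = 0.078). Cxcl10 and Oasl1 lost the call without KO stiff 1 (adjusted p = 0.0913 and 0.11) and without KO stiff 2 (0.125 and 0.248), and Oasl1 also without WT stiff 1 (0.0915). Oasl1 was the 1 DE gene (3.57%) of the 28 tested members of the list of genes flanking Camkk2, whose median was 0.07. Over so few genes that share cannot be told apart from the share of all tested genes.

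The ISRE core, GAAANNGAAA, was searched on both strands of the same windows. Ifit3b and Slfn8 had the smallest p among interferon-stimulated genes that hold it and are printed as above. The capitals mark the core, read on the opposite strand, 188 and 154 bases before the start in Ifit3b and 48 bases before it in Slfn8.
Ifit3b (chr19:34607707-34608006, plus strand): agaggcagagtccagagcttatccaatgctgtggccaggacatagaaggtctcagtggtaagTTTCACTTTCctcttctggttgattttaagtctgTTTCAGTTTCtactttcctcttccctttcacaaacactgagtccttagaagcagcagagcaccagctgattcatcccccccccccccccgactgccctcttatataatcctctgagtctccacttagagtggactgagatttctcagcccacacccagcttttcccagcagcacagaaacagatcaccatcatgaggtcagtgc
Slfn8 (chr11:83020761-83021060, minus strand): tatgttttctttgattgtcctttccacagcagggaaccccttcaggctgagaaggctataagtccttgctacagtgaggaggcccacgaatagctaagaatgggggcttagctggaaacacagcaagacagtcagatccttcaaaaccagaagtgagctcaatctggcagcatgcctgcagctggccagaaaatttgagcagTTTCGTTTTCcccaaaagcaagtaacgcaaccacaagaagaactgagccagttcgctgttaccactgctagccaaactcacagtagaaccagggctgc
The core was in 23.4% of the 111 higher DE genes, in 7.55% of the 53 lower ones, in 3.99% of the 8337 tested genes and in 3.99% of all 27025. Among 62 members of the interferon list with a promoter it was in 32, and among the 20 that rose in 14. The list is made of genes known to respond to interferon, so that the share within it is no finding. These 14 are part of the 26 higher DE genes that hold the core, so that the 23.4% rests in large part on the same list.

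**Figure D4:**
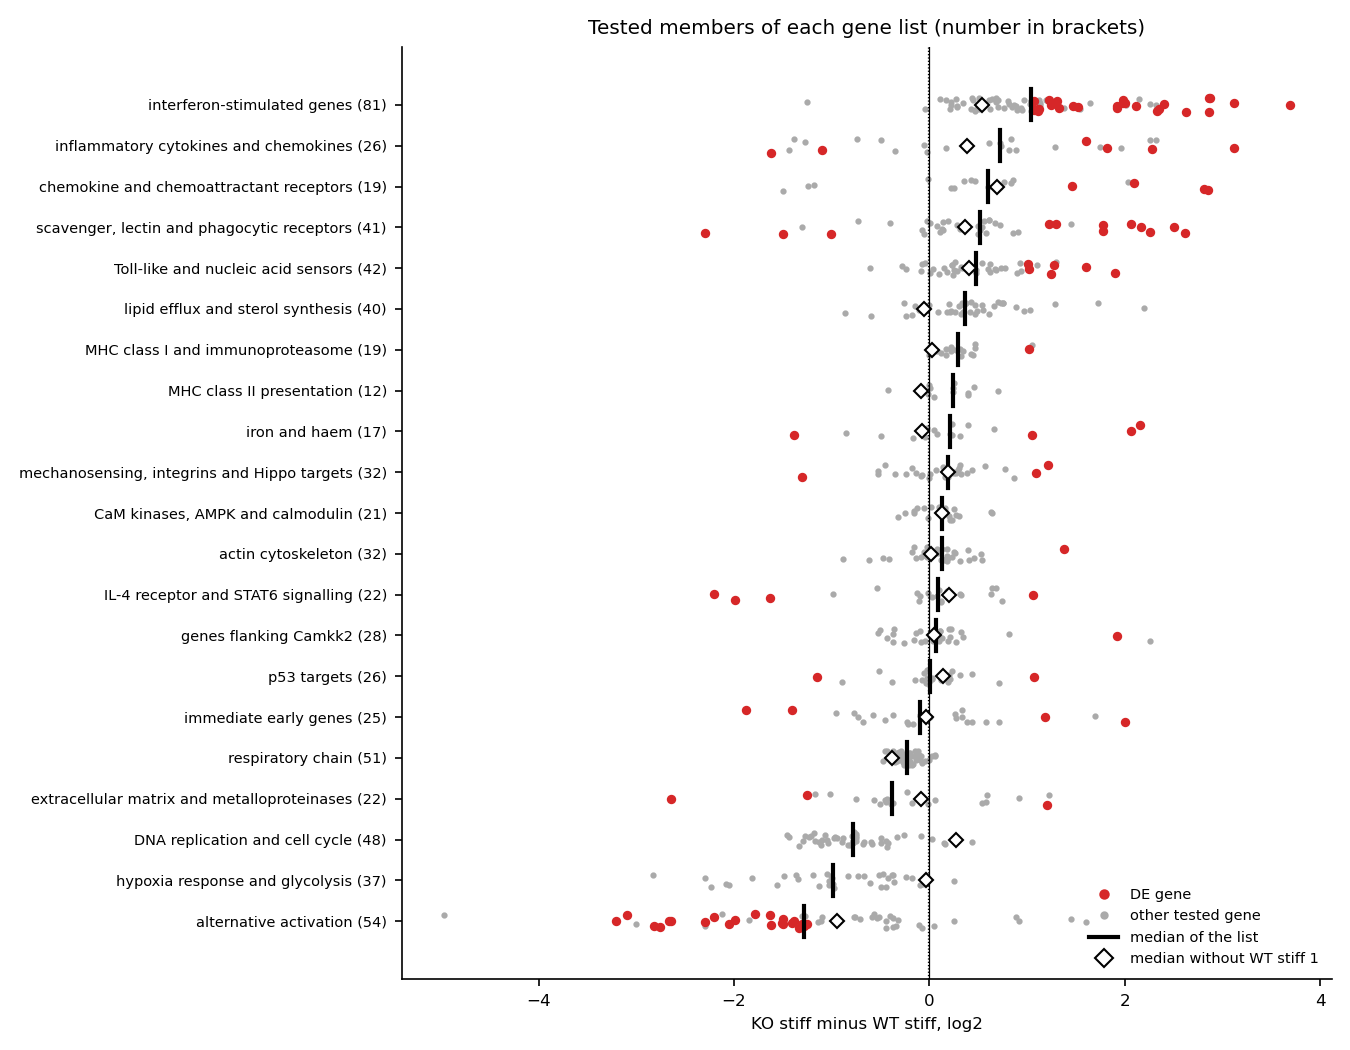
KO stiff minus WT stiff on the log2 scale for the tested members of 21 gene lists, ordered by median, with red points for DE genes, bars for the median and open diamonds for the median without WT stiff 1. The interferon list has the highest median (1.04) and alternative activation the lowest (−1.28), and the diamonds of the hypoxia and cell cycle lists lie near or above 0.

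Receptors for microbial and tissue ligands were among the firmest rises. Fcgr1, the high-affinity IgG receptor CD64 (chromosome 3, 96282909 to 96293969), measured 113 and 92.1 TPM in KO stiff against 18.7 and 22.6 TPM in WT stiff. It rose by 2.25 (SE 0.146, adjusted p = 0.00028), and by 2.11 to 2.40 with 1 library left out. The rise was 2.11 without KO stiff 1 and 2.13 without WT stiff 1. Tlr2, the receptor for bacterial lipoproteins (chromosome 3, 83836272 to 83841767), was at 72.3 and 83.8 against 21.7 and 18.8 TPM and rose by 1.90 (SE 0.131, adjusted p = 0.00028). Tlr9, which senses unmethylated DNA, was at 22.2 and 21.9 against 4.92 and 8.76 TPM (1.60, adjusted p = 0.00229), and Cd180, a TLR4-related receptor, rose by 1.27. Cd180 lost the call without KO stiff 1 (adjusted p = 0.0747), without KO stiff 2 (0.0647) and without WT stiff 1 (0.86, under the 2-fold limit). Tlr7, the sensor of single-stranded RNA, was at 71.6 and 87.8 against 42.6 and 39.6 TPM. Its difference of 0.93 passed the p threshold (adjusted p = 0.0111) but not the fold limit. Of 42 tested sensors 6 rose and 0 fell (14.3%), with a median of 0.48. There were 4 calls without KO stiff 1 and 4 without WT stiff 1, with medians of 0.46 and 0.41.

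Phagocytic and lectin receptors moved in both directions, with 29.3% of the tested members called. Of 41 tested members, 9 rose and 3 fell, with 7 and 0 without KO stiff 1 and 10 and 1 without WT stiff 1. Pilra, an inhibitory receptor of myeloid cells, was at 17.1 and 16.1 against 1.62 and 2.14 TPM and rose by 2.62 (SE 0.221, adjusted p = 0.000611). Its activating relative Pilrb1 rose by 2.51, but its reads could have been divided with near-identical family members. Clec4e, the lectin Mincle, was at 45.1 and 62.4 against 14.5 and 15.0 TPM (1.78, adjusted p = 0.000932), and Axl, a receptor for dying cells, at 48.0 and 54.6 against 17.3 and 23.5 TPM (1.30, adjusted p = 0.00263). The 3 falls were Mrc1, Mgl2 and Fcgr2b, the inhibitory IgG receptor, at 240.1 and 284 against 665 and 415 TPM (−1.01, adjusted p = 0.0291). Fcgr2b had −0.88 without KO stiff 1 (adjusted p = 0.195), −0.67 without WT stiff 1 (0.0502) and lost the call without KO stiff 2 (0.0989), and Pilrb1 lost it without KO stiff 1 (0.0779) and KO stiff 2 (0.1). Clec4e, Axl and Fcgr2b were named after their values were seen.

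Receptors for chemoattractants rose in 4 of 19 tested members (21.1%), with 0 falls and a median of 0.60. Cx3cr1, the fractalkine receptor of monocytes and resident macrophages, was at 18.4 and 22.7 against 4.17 and 0.70 TPM. It rose by 2.86 (SE 0.408, adjusted p = 0.0049), and by 3.66 without WT stiff 1, since WT stiff 2 was the lower of the pair. Fpr2, a formyl peptide receptor, was at 8.68 and 16.2 against 0.354 and 1.48 TPM and rose by 2.82 (adjusted p = 0.00756). Cxcr3, the receptor of Cxcl10, was at 6.33 and 3.52 against 0.216 and 0.495 TPM (2.09, adjusted p = 0.00298), and C5ar1, the receptor of complement C5a, at 217 and 249 against 80.6 and 87.3 TPM (1.46, adjusted p = 0.000636). The 4 calls remained without KO stiff 1, and without KO stiff 2 those of Cx3cr1 (adjusted p = 0.0545) and Fpr2 (0.0754) were lost. C5ar1 was named after its values were seen.

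Inflammatory cytokines and chemokines did not move as 1 group. Of 26 tested members 4 rose and 2 fell (23.1%), and the median was 0.73. Without KO stiff 1, 3 rose and 0 fell (median 0.75), and without WT stiff 1, 6 rose and 0 fell (median 0.38). Il1b, a pyrogenic cytokine, was at 10.2 and 14.9 against 0.961 and 2.87 TPM and rose by 2.28 (SE 0.347, adjusted p = 0.00643). Cxcl2, a neutrophil chemoattractant, was at 14.7 and 17.6 against 4.57 and 4.66 TPM (1.61, adjusted p = 0.000636). The monocyte chemoattractants went the other way, with Ccl2 at 18.8 and 31.9 against 54.8 and 52.2 TPM (−1.09, adjusted p = 0.0426) and Ccl7 at 12.8 and 21.9 against 66.5 and 43.0 TPM (−1.62, adjusted p = 0.0246). Ccl2 and Ccl7 without KO stiff 1 had −0.73 and −1.25 (adjusted p = 0.26 and 0.182), and without WT stiff 1 they had −1.06 and −1.31 (0.0821 and 0.069). Il1b lost the call without KO stiff 2 (0.0664). Tnf (24.3 and 22.2 against 1.01 and 10.7 TPM, 2.32) and the acute-phase gene Saa3 (2.26) did not pass, at adjusted p = 0.0601 and 0.0504. Cxcl2, Ccl2 and Ccl7 were named after their values were seen.

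Of 17 tested genes of iron and haem, 3 rose and 1 fell (23.5%). The log2 fold change was positive in 11 and negative in 6, and the median was 0.21, or −0.07 without WT stiff 1. Tfrc, which takes iron up, was at 46.7 and 51.7 TPM in KO stiff and 124 and 136 TPM in WT stiff and fell by 1.38 (SE 0.116, adjusted p = 0.000611). Slc40a1, which encodes the iron exporter ferroportin, was at 9.92 and 11.2 against 0.694 and 2.93 TPM and rose by 2.16 (adjusted p = 0.00618), or by 1.55 without WT stiff 1. Cp, the ferroxidase ceruloplasmin, rose by 2.06 and Slc11a1, a metal transporter of the phagosome, by 1.05. Slc11a1 lost the call without KO stiff 1 (adjusted p = 0.0912) and had 0.68 without WT stiff 1, and without KO stiff 2 the 3 rises lost it (0.0595 to 0.117).

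Of 22 tested genes of extracellular matrix and metalloproteinases, 1 rose and 2 fell, which is 13.6% against the 1.42% higher and 0.638% lower of all tested genes. Fn1, fibronectin, was at 28.3 and 21.9 against 349 and 73.3 TPM and fell by 2.64 (adjusted p = 0.0233), or by 1.52 without WT stiff 1. Mmp13, a collagenase, fell by 1.25 and Spp1, osteopontin, rose by 1.20, from 777 and 1484 to 2305 and 2649.6 TPM. Fn1 and Spp1 lost the call without KO stiff 1 (adjusted p = 0.104 and 0.097), without KO stiff 2 Fn1, Mmp13 and Spp1 did (0.0951 to 0.154), and without WT stiff 1 Mmp13 and Spp1 had −0.95 and 0.74. Of 32 tested genes of mechanosensing, integrins and Hippo targets, Itga4 and Itga6 rose and Itgb3 fell (9.38%). Itga4 and Itga6 lost the call without KO stiff 1 (adjusted p = 0.054 and 0.129) and without KO stiff 2 (0.154 and 0.229), Itga4 had 0.94 without WT stiff 1 and Itga6 0.76 without WT stiff 2. Itgb3 was at 3.74 and 3.24 against 10.2 and 9.92 TPM (−1.30, SE 0.164, adjusted p = 0.00236). Piezo1, a stretch-activated channel named after its values were seen, was at 45.3 and 40.8 against 30.3 and 46.4 TPM (0.19, adjusted p = 0.636). Ptk2b, the calcium-regulated focal adhesion kinase, had a difference of 0.87 (adjusted p = 0.000636), under the fold limit. Coro1a, an actin-binding protein of leukocytes, was at 548 and 573 against 173 and 265 TPM (1.38, SE 0.163, adjusted p = 0.0017). It was the 1 call of 32 actin genes (3.1%), a share that over so few genes cannot be told apart from that of all tested genes.

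Of 21 tested genes of CaM kinases, AMPK and calmodulin, 0 were DE genes and 3 had an unadjusted p under 0.05 in limma, and over so few genes 0 calls cannot be told apart from the 1.42% higher and 0.638% lower of all tested genes. They ran from −0.32 to 0.64 with a median of 0.13. Camk1, a direct substrate of CaMKK2, was at 186 and 192 against 129.7 and 113 TPM (0.64, adjusted p = 0.00612), and Camk1d at 17.8 and 19.4 against 11.0 and 12.3 TPM (0.63, adjusted p = 0.0368). Both groups of libraries were separate in these genes, and the differences stayed under the fold limit. Prkaa1, a catalytic subunit of AMPK, was at 16.8 and 15.6 against 17.2 and 13.4 TPM and was named after its values were seen. RNA levels do not report the activity of these kinases.

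The medians of the hypoxia and cell cycle lists were near 0 or turned without WT stiff 1. The 37 tested genes of hypoxia and glycolysis had a median of −0.99 with 0 calls (16 at an unadjusted p under 0.05), and −0.04 without that library. Without it, Vegfa, the endothelial growth factor, and Ndrg1 were called higher (1.22 and 1.27, adjusted p = 0.0375 and 0.00122, against −0.44 and −0.43 with all 4 libraries) and Ak4, an adenylate kinase, lower (−1.02, adjusted p = 0.0273). Pfkp, a phosphofructokinase of glycolysis, was at 52.3 and 47.1 against 104 and 93.8 TPM and had −0.98 (adjusted p = 0.00171), just under the fold limit, and −1.05 without KO stiff 1, where it was called. Vegfa, Ndrg1 and Pfkp were named after their values were seen. The 48 genes of DNA replication and cell cycle had a median of −0.78 with 0 calls (4 at an unadjusted p under 0.05), and 0.27 with 0 calls without WT stiff 1. Their median level was 26.3 TPM in WT stiff 1 against 4.32 to 6.10 TPM in the other 3 stiff libraries. Without WT stiff 2, 26 and 37 of these genes were called lower. Genes of sterol synthesis and lipid efflux went from a median of 0.36 to −0.05 without WT stiff 1, also with 0 calls of 40. MHC class II genes, which present antigen to helper T cells, had 0 calls of 12 and a median of 0.24, or −0.09 without WT stiff 1. MHC class I genes had 1 call of 19 (5.26%), Nlrc5, their activator, at 1.02. Over so few genes the calls of both MHC lists cannot be told apart from the 1.42% higher and 0.638% lower of all tested genes. The 51 respiratory chain genes had 0 calls and a median of −0.23, with 47 negative and 18 at an unadjusted p under 0.05 in limma. Their lowest value was −0.47, so that the fold limit left no room for a call. In 29 of them both KO libraries lay below both WT libraries, against 17.7% of all tested genes. The median was −0.38 without WT stiff 1 and −0.08 without WT stiff 2. The p53 targets had Pmaip1 higher and Ak1 lower of 26 (7.69%). The 25 immediate early genes had 2 higher and 2 lower (16%), with Nr4a1 at 2.00 and Ier3 at −1.88. Without KO stiff 1, Nlrc5, Pmaip1, Ak1, Nr4a1 and Ier3 lost the call (adjusted p = 0.0599 to 0.268), without KO stiff 2 Nlrc5, Pmaip1 and Nr4a1 did (0.0697 to 0.237), without WT stiff 1 Nlrc5 (0.57) and Ak1 (adjusted p = 0.0902), and without WT stiff 2 Pmaip1 (0.86).

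Several further genes were not members of the pathway lists. The lists were written by hand, and absence from a list does not place a gene outside the pathway. Ly6a, the antigen Sca-1, was at 60.4 and 41.8 against 5.25 and 7.23 TPM and rose by 2.84 (SE 0.229, adjusted p = 0.000578). Adgre4, an adhesion receptor of the EMR family, was at 7.98 and 10.1 against 0.0670 and 0.868 TPM (2.82, adjusted p = 0.000963). Pcp4l1, which resembles a calmodulin-binding protein of neurons, was at 52.7 and 46.3 against 1.44 and 11.1 TPM (3.21, adjusted p = 0.0109), or 2.05 without WT stiff 1. Ramp3, which modifies the calcitonin-type receptors, fell by 2.10. Lyz2, the lysozyme of macrophages, was at 40543 and 42671 against 19076 and 20502 TPM (1.07, adjusted p = 0.00263), and Cybb, the catalytic subunit of the phagocyte oxidase, at 590.4 and 657 against 183 and 299 TPM (1.41, adjusted p = 0.00295). Siglec1, a sialic acid receptor, rose by 1.38. Lyz2, Cybb and Siglec1 remained DE genes with each library left out. Of the 10 tested macrophage markers, Fcgr1, Lyz2 and Aif1 rose and 0 fell, with Aif1, a calcium-binding protein of macrophages, at 174 and 184 against 36.1 and 97.1 TPM (1.57, adjusted p = 0.0276). Acp5, the tartrate-resistant phosphatase of osteoclasts and macrophages, fell from 68.9 and 43.4 to 27.1 and 19.1 TPM (−1.23, adjusted p = 0.0259). Pcp4l1, Ramp3, Aif1 and Acp5 lost the call without KO stiff 1 (adjusted p = 0.0592 to 0.141) and without KO stiff 2 (0.0727 to 0.179), and Aif1 and Acp5 had 0.87 and −0.90 without WT stiff 1. Lyz2, Cybb, Siglec1, Aif1 and Acp5 were named after their values were seen.

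No gene passed the test between the genotypes in the soft matrix. KO soft against WT soft gave 0 DE genes (0% of those tested) in the same model, with 119 genes at an unadjusted p under 0.05. None of the 223 genes reached 1 on the log2 scale there in either direction. Their median absolute value was 1.41 in the stiff matrix, where they were chosen for their difference, and 0.06 in the soft matrix. The soft groups hold 2 libraries whose Camkk2 level goes against the label. If the level and not the label were right, each soft group would mix the genotypes. The soft contrast could then not show a difference between them, and the term below would repeat the stiff difference. By the same reading KO stiff would mix the genotypes as well, since Camkk2 in KO stiff 1 (37.7 TPM) exceeded both WT stiff libraries. KO stiff 1 and KO stiff 2 lay on the same side of WT stiff in each of the 223 genes. These genes could then not be read as a genotype difference either. Whether the level or the label is right was not tested. The difference of the differences, stiff minus soft, passed the same thresholds in 77 genes, 59 higher (0.546%) and 18 lower (0.167%), and 72 of the 77 were among the 223. Leaving out a soft library reduced the 77 calls to between 4 and 41, and leaving out KO stiff 1 or KO stiff 2 to 19 and 5.

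The levels of the called genes are best read beside the other groups. The 154 higher genes had a median level of 31.2 and 32.9 TPM in KO stiff, 8.65 and 11.96 TPM in WT stiff, 36.6 to 39.2 TPM in the 4 soft libraries and 12.1 to 12.98 TPM in the 4 soft libraries with IL-4. In these genes KO stiff lay nearer to soft, and WT stiff nearer to soft with IL-4. The 69 lower genes had a median of 13.5 and 12.1 TPM in KO stiff, 56.0 and 33.0 TPM in WT stiff, 5.32 to 6.88 TPM in soft and 31.7 to 33.4 TPM in soft with IL-4. Here KO stiff lay between soft and WT stiff. The distance between the stiff groups was set by the choice of the genes, and the values are a description without a test.

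**Figure D5:**
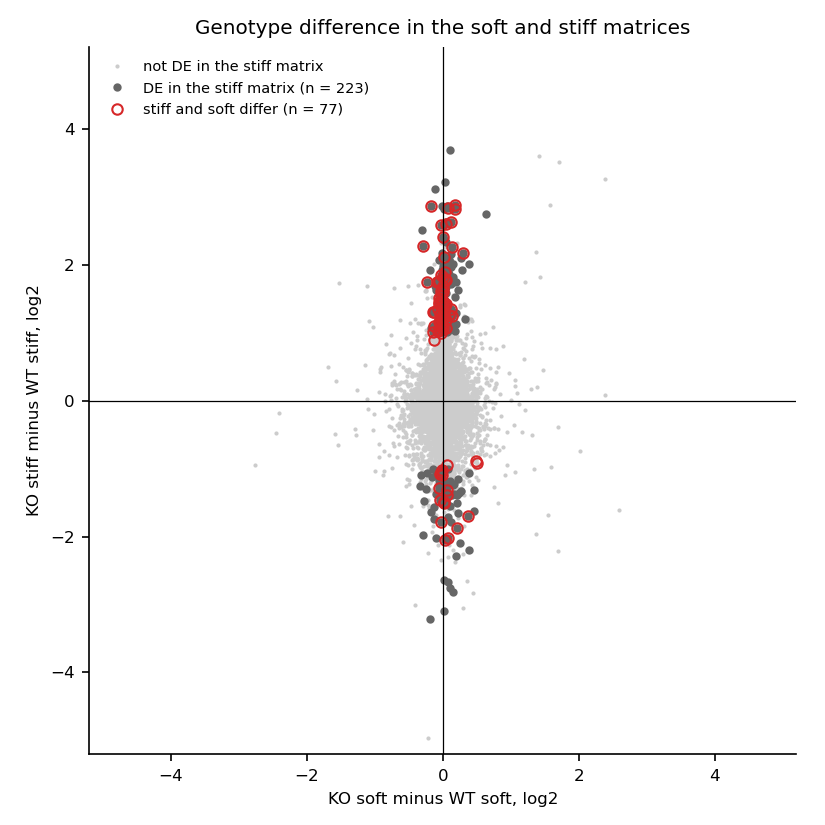
Genotype difference (KO minus WT, log2) of each tested gene in the soft matrix on the x axis and in the stiff matrix on the y axis, with dark points for the 223 DE genes of the stiff matrix and red circles for the 77 genes whose differences differed between the matrices. The 223 genes form a vertical band near 0 on the soft axis.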

How the data were processed

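BMDM RNA was sequenced from poly-A selected, strand-specific libraries. The table deposited by the authors gives TPM, that is, reads per gene length scaled to a fixed total per library. The labels name Trim Galore 0.6.7, Salmon 1.4.0 and mm10, whereas the study's methods name STAR, featureCounts and DESeq, so how shared reads were assigned is not settled. TPM keeps no depth, and count models were not used. The fit was limma 3.58.1 (R 4.3.3) on log2(TPM + 1), with 1 mean per group over 12 libraries and a variance trend, for genes that reached 1 TPM in 2 or more of the 4 stiff libraries. The code was tested on simulated data. DE genes passed a Benjamini-Hochberg adjusted p of 0.05 and a log2 difference of 1 in either direction. Members and lists were chosen with earlier results of these data known. Named genes were Camkk2, genes the study names, the 10 largest rises and falls among separated DE genes, and up to 4 members per list with the largest differences. Other genes are marked as named after their values were seen. Of 766 different symbols in the pathway lists, 2 were matched by synonym. Coordinates are from GENCODE vM21, in which 13521 of 14098 symbols had 1 gene. Alternatives were another pseudocount, 2 other filters, median-of-ratios scaling, the 4 stiff libraries alone, a replicate block, other thresholds and each library left out.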

Additional observations from a re-analysis of the deposited data

Results flagged for a closer look

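The genotype difference in the stiff matrix differed from that in the soft matrix, by the interaction term of the 12-library limma model, in 24 of the genes named above, and these are given as stiff minus soft on the log2 scale. Members of the interferon list were Ifit3b (3.04), Ms4a4c (2.70) and Slfn8 (1.47). Receptors and sensors were Pilra (2.50), Fcgr1 (2.12), Tlr2 (1.86), Clec4e (1.73), Tlr9 (1.60), C5ar1 (1.48), Siglec1 (1.38) and Axl (1.27). The inflammatory genes Il1b and Cxcl2 had 2.56 and 1.64, and Ly6a, Adgre4, Cybb, Coro1a and Lyz2 had 2.76, 2.64, 1.38, 1.37 and 1.02. Lower were Ier3 (−2.09), Pdcd1lg2 (−2.09), Flt1 (−1.75), Il4i1 (−1.53), Tfrc (−1.45) and Irf4 (−1.23). Adjusted p ran from 0.00917 for Fcgr1 and Tlr2 to 0.0488 for Ier3 and Lyz2. The term draws on the libraries labelled WT soft 2, KO soft 1 and KO stiff 1, whose Camkk2 goes against the label, and on WT stiff 1, and their part in it was not tested beyond leaving each out.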

How the results depend on the processing

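The count of 223 DE genes ran from 180 to 228 with a pseudocount of 0.1 TPM, with no filter on low values, with 1 TPM in at least 2 of 12 libraries, with median-of-ratios scaling and with the replicate block, but fell to 0 (953 at an unadjusted p under 0.05) in the model of the 4 stiff libraries alone, whose spread rests on 4 libraries, and to 45 at a log2 difference of 2. With 1 stiff library left out it ran from 92 to 962. WT stiff 2 gave the 962 when left out, so that WT stiff 1 alone stood for WT, and the share of higher genes was then 41.6% instead of 69.1%. The 77 genes whose genotype difference depended on the matrix became 117 at an adjusted p under 0.1 and 15 at a log2 fold change of 2, and 4 to 866 with 1 library left out. Of the 65 DE genes named in the text, none changed sign under the 10 alternatives, and 60 kept the call under the other pseudocount, 54 without a filter, 60 under median-of-ratios scaling, 0 in the 4-library model, 31 without KO stiff 1, 29 without KO stiff 2, 49 without WT stiff 1 and 62 without WT stiff 2. In each DE gene both libraries of 1 genotype lay above both of the other. A left-out library, the pseudocount, the filters, the 4-library model and the block therefore could not change its sign. Only the median-of-ratios scaling could have, so the constant sign is no sign of stability. Among the named genes that were not DE genes, signs changed with a library left out: Camkk2 ran from −1.15 to 0.66, Mki67 from −3.13 to 0.27, Il4ra from −0.065 to 0.30, Piezo1 from −0.11 to 0.49, Vegfa from −2.10 to 1.22, Ndrg1 from −2.12 to 1.27 and Prkaa1 from −0.084 to 0.26 on the log2 scale. The cause of these changes was not tested, and TPM gives no depth by which a value could be weighted.
The replicate numbers were not taken to pair the libraries, since the labels give them no shared source and the correlation was over 0.1 in only some pairs of groups. Over 15 pairs of groups the deviations of same-numbered libraries correlated at r = −0.056 to 0.351, 4 pairs were over 0.1, and KO stiff and WT stiff were at 0.00939. Libraries of the same number still shared features, with more genes at 0 in replicate 1 than in replicate 2 of each group and with Camkk2 at 37.7 to 46.6 TPM in replicate 1 and 10.0 to 11.7 TPM in replicate 2 of KO soft, WT soft and KO stiff, and whether the number marks a batch is not given in the sources used here. With the replicate block 228 DE genes were called in the stiff matrix and 90 for the dependence on the matrix.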
